A study of Bos taurus with 90 samples.

Results

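The 100 genes described here were at a higher level in both cumulus cells (CCs) and oocytes than in mural granulosa cells (MGCs) of bovine antral follicles. The choice took this ratio and not the level itself, and means in CPM (a count divided by the library total and multiplied by 1000000) were 0.135 to 163 in MGCs, 5.11 to 2660 in CCs and 5.57 to 3816 for oocytes. They were chosen by their mean CPM in the 3 cell types over 26 follicles, from 27270 genes in the table. A gene had to have a mean of at least 0.1 CPM in MGCs and a mean in oocytes above 0.25 times that in CCs, which 12063 genes did. The 100 with the highest log2 ratio of the lower of the CC and oocyte means to the MGC mean, each plus 1 CPM, were taken. This log2 ratio is called the separation below. Because the separation chose the genes, the levels of the 3 cell types in these 26 follicles are given as a description and without a test.

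MGCs, the pool of CCs and the single oocyte were dissected from each of 30 follicles of Bos taurus ovaries, without any treatment, and 1 RNA-seq library was made from each. Libraries are named as labelled, by cell type (G for MGCs, C for CCs, O for oocytes), stage (S, M, L) and follicle number. Of the 26 follicles that chose the genes, 8 were small (3.1 to 3.8 mm in diameter), 8 were medium (6.2 to 7.0 mm) and 10 were large (9.6 to 11.6 mm), and the other 4 were left out of the choice and served as separate samples. The 26 include follicles that the study's marker criteria did not count as healthy. MGC libraries were made by standard bulk RNA-seq, whereas CC and oocyte libraries were amplified by SMART-seq2, a protocol for small amounts of RNA. A level that CCs and oocytes share against MGCs therefore cannot be told apart from a difference between the protocols. In MGC and CC libraries, each made from many cells, fewer cells with a transcript and less of it per cell cannot be told apart either.

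MGCs line the wall of the follicle, produce steroids and respond to gonadotropins. CCs are granulosa cells that surround the oocyte, reach it by cell projections through the zona pellucida and exchange small molecules with it through gap junctions. The oocyte stores RNA during growth and in turn secretes growth factors that act on the CCs. The table lists genes by Ensembl identifier alone and no table used here pairs these with symbols, so functions cannot be given and the genes are called by their rank in separation.

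The median library held 34374837, 29213462 and 30602723 counts for MGCs, CCs and oocytes, and the lowest of the 26 follicles held 8442938. In each cell type 2 libraries stood apart, by the correlation of log2(CPM + 1) with the median of the other libraries. In CCs these were the small pools CS50501 (r = 0.798) and CS71701 (r = 0.864), against at least 0.907 in the other 24. In MGCs they were GL50505 and GS70501 (r = 0.899 and 0.923, others at least 0.930), and in oocytes OS50502 and OS71701 (r = 0.858 and 0.891, others at least 0.914). The pool CS70701, from one of the 4 follicles left out, held counts for 1066 genes only, with a count for 9 of the 100, and was not used.

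The 100 genes took a small share of each MGC library and a larger one of each CC and oocyte library. Their summed counts were 0.079% to 0.351% of the library in MGCs (median 0.139%), 0.986% to 2.35% in CCs (median 1.46%) and 2.13% to 3.59% in oocytes (median 2.70%). No MGC library reached the lowest CC pool, and the CC and oocyte ranges overlapped. Over MGCs, the mean level of a gene was 5.05 to 205 times as high in CCs (median 10.7) and 5.16 to 1422 times as high in oocytes (median 15.1).

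**Figure D1:**
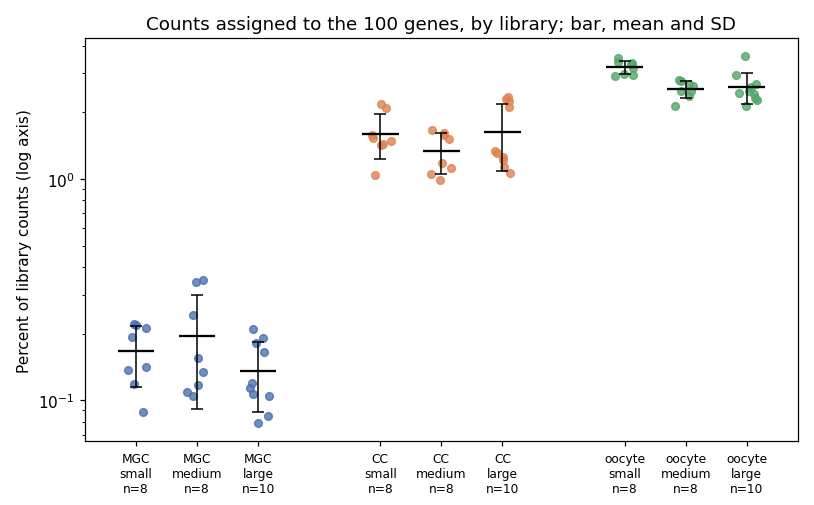
Percent of each library's counts assigned to the 100 genes (log axis), with 1 point for each library of the 26 follicles, by cell type and stage, and the mean and SD as bars. The highest MGC library is at 0.351% and the lowest CC pool at 0.986%, and the oocytes lie between 2.13% and 3.59%.

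The gene of rank 1 stood furthest from the rest, with a separation of 5.06 (33.3-fold) against 3.96 for rank 2. In MGCs it had a lowest level of 0 CPM, a median of 0.0573 CPM and a highest of 1.98 CPM, and it had no count in 10 of 26 libraries. In CCs it ranged from 2.03 to 103 CPM around a median of 31.3 CPM, and in oocytes from 19.2 to 219 CPM around a median of 91.3 CPM. All 26 CC pools and all 26 oocytes thus lay above every MGC library, and the oocyte lay above the CC pool of its own follicle in 25 follicles.

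Rank 2 had a different balance between the cells of the cumulus-oocyte complex. It ranged from 0.629 to 8.62 CPM in MGCs (median 2.94), from 16.6 to 251 CPM in CCs (median 40.8) and from 728 to 1259 CPM in oocytes (median 924). The oocyte mean was 14.0 times the CC mean, and the oocyte was the higher of the pair in all 26 follicles. Rank 4 was close to even, with 324 to 1997 CPM in CCs (median 539), 477 to 1013 CPM in oocytes (median 678) and 15.5 to 92.2 CPM in MGCs (median 42.8). Its oocytes were above their own CC pool in 16 follicles and below it in the others.

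Among the other genes of the first 10, ranks 3, 5, 6, 8, 9 and 10 also had a higher mean in oocytes than in CCs. Rank 7 was the exception beside rank 4. Its CC pools ranged from 8.00 to 867.8 CPM (median 156), its oocytes from 9.22 to 161 CPM (median 92.8) and its MGCs from 1.01 to 22.3 CPM (median 4.96). This gave the lowest ratio of oocyte to CC among the 100, 0.343.

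At the limit of the choice the separation changed little. Ranks 99 and 100 had separations of 2.290 and 2.286, the latter a 4.88-fold difference, and the next genes, just outside, had 2.286 and 2.269.

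Across the 100, the oocyte mean was higher than the CC mean for 75 genes and lower for 25, with a median ratio of 1.54. For 64 genes the means were within 2-fold of each other, for 4 the CC mean was more than 2 times the oocyte mean, and for 16 the oocyte mean was 2 to 4 times as high. Another 9 genes were 4 to 10 times and 7 were more than 10 times as high in oocytes. In the 7, oocytes had means of 195 to 3816 CPM, CCs of 5.46 to 97.7 CPM and MGCs of 0.281 to 16.5 CPM. The label of genes shared by CCs and oocytes thus covers genes of even level and genes led by the oocyte.

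**Figure D2:**
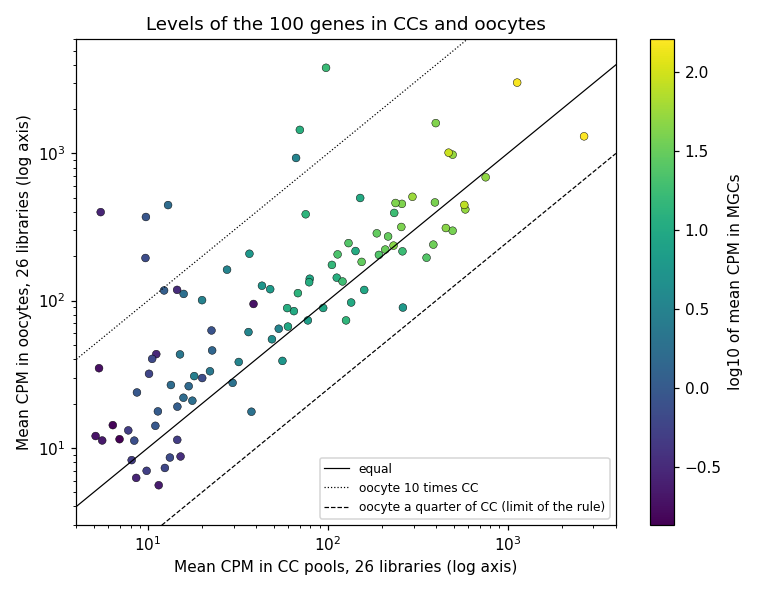
Mean CPM of each of the 100 genes in oocytes (vertical, log axis) against CC pools (horizontal, log axis), over 26 libraries each, with the colour giving log10 of the mean CPM in MGCs. The solid line marks equal levels, the dotted line an oocyte mean of 10 times the CC mean, above which 7 genes lie, and the dashed line the limit of the choice at 0.25.

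The highest ratio, 73.1, was that of rank 91. It ranged from 119 to 1033 CPM in oocytes (median 326), from 0 to 50.1 CPM in CCs (median 3.26) and from 0 to 0.968 CPM in MGCs (median 0.252). Its highest CC pool was CS50501, one of the pair that stood apart. Ranks 71 and 73 had the next highest ratios, 39.0 and 38.0, and their oocytes were above their own CC pool in all 26 follicles. At the other end, rank 54 and rank 82 had ratios of 0.468 and 0.486, but medians of 19.7 and 2.44 CPM in CCs against means of 37.6 and 11.5 CPM. Their CC levels spread from 2.46 to 314 CPM and from 0 to 107 CPM. Rank 27, with a ratio of 0.491, ranged from 757 to 7244 CPM in CCs (median 2179) and from 796 to 3295 CPM in oocytes (median 1281), and 4 oocytes exceeded their own CC pool.

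As a measure of oocyte RNA in the CC libraries, the 97 genes with a mean under 0.1 CPM in MGCs and above 100 CPM in oocytes were measured in CCs. Their CC mean was 0.0109% to 0.551% of the oocyte mean (median 0.0282%), and their sum was 0.0045% to 0.0855% by follicle. The lowest CC level among the 100 genes was 1.37% of the oocyte level, that of rank 91, and 0 of the 100 lay below 0.551%. This is a description and no test, because the choice asked for a CC level above that of MGCs and so limited how low the share could be. In the other direction, 133 of 1743 genes with a CC mean above 100 CPM had an oocyte mean under 1% of it, down to 0.00959%. The 100 genes cannot be set beside these, since the choice kept their oocyte means above 0.25 times the CC means.

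Whole groups of libraries were often separate. All 26 CC pools lay above all 26 MGC libraries for 36 of the 100 genes (1.49% of the 15056 genes that passed the limit on low values, more than 1 CPM in at least 15 libraries of a cell type). All 26 oocytes did so for 76 genes (15.9% of those 15056), and both did so for 34 (0.551%). Within follicles, the CC pool and the oocyte were both above the MGCs of the same follicle in all 26 follicles for 50 genes (1.91%) and in at least 24 for 90 genes, and the fewest was 19 follicles. Nothing is read from these counts, since the same levels chose the genes. The oocyte was above its own CC pool in all 26 follicles for 20 genes (21.4%), in at least 20 for 57 and in at most 6 for 10.

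All 100 genes passed that limit on low values, 66 of them in MGCs and all of them in CCs and in oocytes, as a gene high in both had to. In MGCs 27 genes had a mean under 1 CPM and 25 had at least 1 library at 0. The spread between libraries differed by cell type. The SD of log2(CPM + 1) had medians of 0.674, 0.887 and 0.532 for MGCs, CCs and oocytes, against 0.504, 0.730 and 0.659 for the genes that passed. The 100 genes thus varied more than the median gene in MGCs and CCs and less in oocytes.

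Pairs of the 100 genes were weakly correlated on average, more than pairs of all genes in MGCs and oocytes and less in CCs. The mean correlation between pairs of the 100 across the 26 libraries was 0.161, 0.055 and 0.127 for MGCs, CCs and oocytes, against 0.057, 0.103 and 0.047 for pairs of all genes that passed. These are descriptions over 26 libraries that share depth and handling. The extremes gathered in few libraries. In MGCs, GS50501, GM71002 and GM72404 were the highest of 26 for 23, 20 and 14 of the genes. In CCs, CS50501 was the lowest of 26 for 27 of the genes and the highest for 16, and CS71701 was the highest for 17. By position, 5 of the genes, ranks 12, 46, 57, 87 and 91, lay within 14 consecutive rows of the table, with ratios of oocyte to CC of 8.15, 1.18, 9.54, 5.04 and 73.1. In all, 12 genes had another of the 100 within 3 rows.

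The choice was next set against the 4 follicles it had left out, with 4 MGC, 3 CC and 4 oocyte libraries. They were small or medium and none was large. The oocyte libraries OM71804 and OM71001 held counts for 6770 and 9524 genes, against 10588 to 16641 in oocytes of the 26 follicles. The pool CS70702 held counts for 23838 genes, against at most 18588 in CC pools of the 26. The study excluded the follicle of OM71804 for a high mitochondrial share in its oocyte. The separation recomputed in the 4 follicles ranged from 0.54 to 5.72 with a median of 2.57, against a median of -0.65 over the 15056 genes. It was above 1, or 2-fold, for 97 of the 100 (8.25% of the 15056) and above 2 for 84, and it was lower than in the 26 follicles for 62. Rank 1 was again highest, with means of 0.167 CPM in MGCs, 60.5 CPM in CCs and 108 CPM in oocytes. The 3 genes below 1 were ranks 82, 70 and 91, with 0.54, 0.73 and 0.93. In ranks 82 and 91 the CCs were the lower of the pair, with means of 0.719 and 1.12 CPM, and in rank 70 the oocytes were, with 1.30 CPM. The same rule applied to these libraries alone chose 58 of the 100 genes again.

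**Figure D3:**
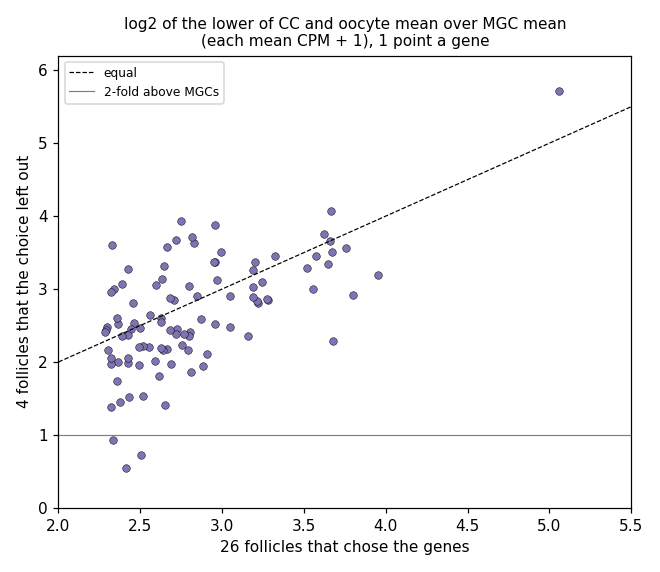
Separation of each of the 100 genes (log2 of the lower of the CC and oocyte mean CPM + 1 over the MGC mean CPM + 1) in the 4 follicles left out of the choice (vertical) against the 26 follicles that chose the genes (horizontal). The grey line marks 2-fold, above which 97 points lie, and the dashed line marks equal values.

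In these left-out follicles, all CC pools lay above all MGC libraries for 76 genes (14.3% of the 15056), all oocytes did so for 63 (13.3%) and both did so for 50 (3.27%). A test over all genes with edgeR's quasi-likelihood method, with a gene called at a Benjamini-Hochberg adjusted p below 0.05 and a change above 2-fold, gave 70 of the 100 as higher in oocytes than in MGCs (12.4% of all genes tested) and 0 as lower (19.5%). Of these 70, 48 were among the 66 genes that passed the limit on low values in MGCs, and 22 were among the 34 that passed it only through CCs and oocytes. Without the follicle of OS70702, 25 were called (13.2% of all genes called in either direction). For CCs against MGCs edgeR called 0 of the 100 (0% of all genes), with 81 at an unadjusted p below 0.05 (11.6% of all genes), while DESeq2 called 55 as higher (2.38%). The fitted log2 differences of CCs over MGCs were positive for all 100 and had a median of 3.29, against 0.22 over all genes. In simulated counts of this size and spread, the same edgeR test recovered 0 of 200 genes changed 4-fold and 51 of 200 changed 32-fold, so its count of 0 does not show equal levels.

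Between CCs and oocytes of the left-out follicles, edgeR called 8 of the 100 as higher in oocytes, near the 6% of all genes, and 0 as higher in CCs (17.2%). Nothing is read from the 0, since the choice kept only genes with an oocyte mean above 0.25 times the CC mean. The 8 called as higher in oocytes were the 7 genes with more than 10 times the CC mean in the 26 follicles and rank 12. Rank 71 had the smallest adjusted p (log2 difference of CC minus oocyte -5.22, SE 0.70, edgeR adjusted p = 0.000631), with means of 45.3 CPM in CCs and 2974 CPM in oocytes. Without the follicle of OS70702, 2 of the 100 were called (6.78% of all genes called in either direction).

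Stage was not used in the choice of the genes, and levels were compared between small, medium and large follicles within each cell type, by edgeR over all genes. The choice did use means over these same libraries, so a gene very high in a few CC or oocyte libraries of a single stage could enter through them. The stage counts are therefore not independent of the choice. Without the 2 libraries of each cell type that stood apart, the choice kept 90 of the 100 genes. At each stage alone the separation was above 1 for 99, 100 and 100 genes of small, medium and large follicles, with medians of 2.81, 2.67 and 2.93. Nothing is read from these separations, since the same libraries chose the genes. In MGCs 11 of the 100 genes fell from small to large follicles (2.12% of all genes tested fell) and 0 rose (1.01%). Over the same range 14 fell (2.07%) and 2 rose (1.23%) in CCs, and 4 fell (0.99%) and 0 rose (2.15%) in oocytes. Between medium and large follicles 0 of the 100 were called in any cell type (0% of all genes in each). At an unadjusted p below 0.05 there were 14, 16 and 4 in MGCs, CCs and oocytes, against 10.8%, 7.69% and 5.34% of all genes. With the 10 follicles counted as healthy, 23 were called in MGCs between medium and large follicles, 22 of them lower in large follicles (7.96% of all genes called, 4.66% lower).

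**Figure D4:**
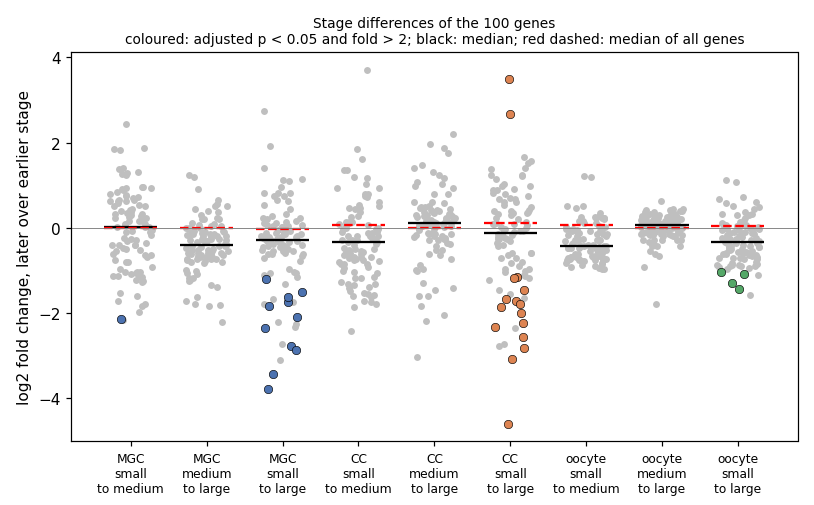
log2 fold change of each of the 100 genes between stages (vertical, later over earlier) for 3 comparisons in each of 3 cell types. Coloured points passed an edgeR adjusted p of 0.05 and a 2-fold change, grey points did not, black bars are the medians of the 100 and red dashed bars the medians of all genes. The coloured points are 11 in MGCs, 16 in CCs and 4 in oocytes from small to large follicles, and 1 in MGCs from small to medium.

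In MGCs, the log2 fold changes of the 11 genes that fell from small to large follicles ran from -3.79 to -1.21 with edgeR adjusted p of 0.00011 to 0.0199, and the median of the 100 was -0.28 against -0.02 for all genes. From small to medium follicles rank 100 fell (log2 fold change -2.13, adjusted p = 0.0107) and 0 rose (0.263% of all genes fell and 0.0202% rose).

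ENSBTAG00000000251, of rank 41, had the smallest p of these. In MGCs it ranged from 34.7 to 64.1 CPM in small follicles (median 52.8), from 25.9 to 39.9 CPM in medium follicles (median 29.8) and from 16.6 to 34.8 CPM in large follicles (median 20.3). The ranges of small and large follicles overlapped only through one large library, GL70503, at 34.8 CPM. The fall from small to large was 1.21 on the log2 scale (SE 0.16, n = 8 and 10, edgeR adjusted p = 0.00011). In CCs its medians were 310, 255.5 and 572 CPM at the 3 stages, a log2 fold change from small to large of 1.04 that did not pass (SE 0.30, edgeR adjusted p = 0.0509). In oocytes the medians were 236, 219 and 259 CPM, and the log2 fold change was 0.06 (SE 0.19, edgeR adjusted p = 0.892).

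Follicle identifiers begin with 3 digits that several follicles share, and small and large follicles share them in 2 cases, the digits of follicle CS50501 (3 small, 1 large) and those of follicle CS70501 (1 small, 2 large). What the digits stand for is not given in the sources used here. By sign alone, the 11 MGC genes fell within the digits of CS50501 for 11 of 11 and within those of CS70501 for 10 of 11. The only large MGC library of the former, GL50505, and the only small one of the latter, GS70501, are the pair that stood apart in MGCs. Some differences were small, such as -0.097 in mean log2(CPM + 1) for rank 38 within the digits of CS70501. With the digits as a covariate the fitted direction was the same for all 11, of which 4 were still called, while the count over the 100 became 8 that rose (3.59% of all genes) and 5 that fell (4.47%).

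In CCs, the falls from small to large follicles rested on the pair of small pools that stood apart. For each of the 14 genes that fell, the highest small pool was CS50501 or CS71701. Without these pools 13 of the 14 were still lower in large follicles, and the log2 fold changes of the 14 lay between -0.96 and 0.19. The 2 genes that rose kept their direction and an unadjusted p below 0.05 without the pair, and neither had its highest small pool there. By the adjusted p, 0 of the 100 and 0 of all genes were called without the pair. Within the digits that include CS50501, 16 of the 16 genes kept their direction, and within those of CS70501, which include neither pool, 3 of 16 did. From small to medium follicles 0 of the 100 were called (0% of all genes), with 31 at an unadjusted p below 0.05 (12.0% of all genes).

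ENSBTAG00000051862, of rank 68, shows this. Its CC pools ranged from 45.2 to 257 CPM in small follicles (median 63.3), from 35.2 to 60.7 CPM in medium follicles (median 49.3) and from 21.7 to 52.8 CPM in large follicles (median 31.2). CS50501 had the highest value, 257 CPM, CS71701 had 213 CPM, and the other 6 small pools had at most 95.1 CPM. The fall from small to large follicles was 2.31 on the log2 scale (SE 0.41, n = 8 and 10, edgeR adjusted p = 0.0283), and without that pair of pools it was 0.96, with an adjusted p of 0.199 by edgeR. In oocytes the same gene had medians of 82.3, 54.1 and 53.3 CPM, a log2 fold change of -0.88 from small to large (SE 0.25, edgeR adjusted p = 0.0250).

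The 2 genes that rose in CCs were ENSBTAG00000021251, of rank 80, and ENSBTAG00000004468, of rank 10. ENSBTAG00000021251 ranged from 0 to 2.23 CPM in small pools (median 0.547), from 0 to 10.8 CPM in medium pools (median 2.25) and from 0.507 to 33.5 CPM in large pools (median 6.94). The groups overlapped, and the log2 fold change from small to large was 3.49 (SE 0.93, edgeR adjusted p = 0.0395). ENSBTAG00000004468 ranged from 0 to 20.2 CPM in small pools (median 4.53), from 0.810 to 32.7 CPM in medium pools (median 10.0) and from 10.6 to 84.1 CPM in large pools (median 30.2). Its log2 fold change was 2.68 (SE 0.77, edgeR adjusted p = 0.0473). Without the pair of pools that stood apart the log2 fold changes were 3.74 and 2.23 and neither passed (adjusted p = 0.244 for both, by edgeR). Neither passed with the 10 healthy follicles (edgeR adjusted p = 0.169 and 0.173), with the shared digits as a covariate (0.297 and 0.147) or with only the 2 stages compared (0.0590 and 0.0650).

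**Figure D5:**
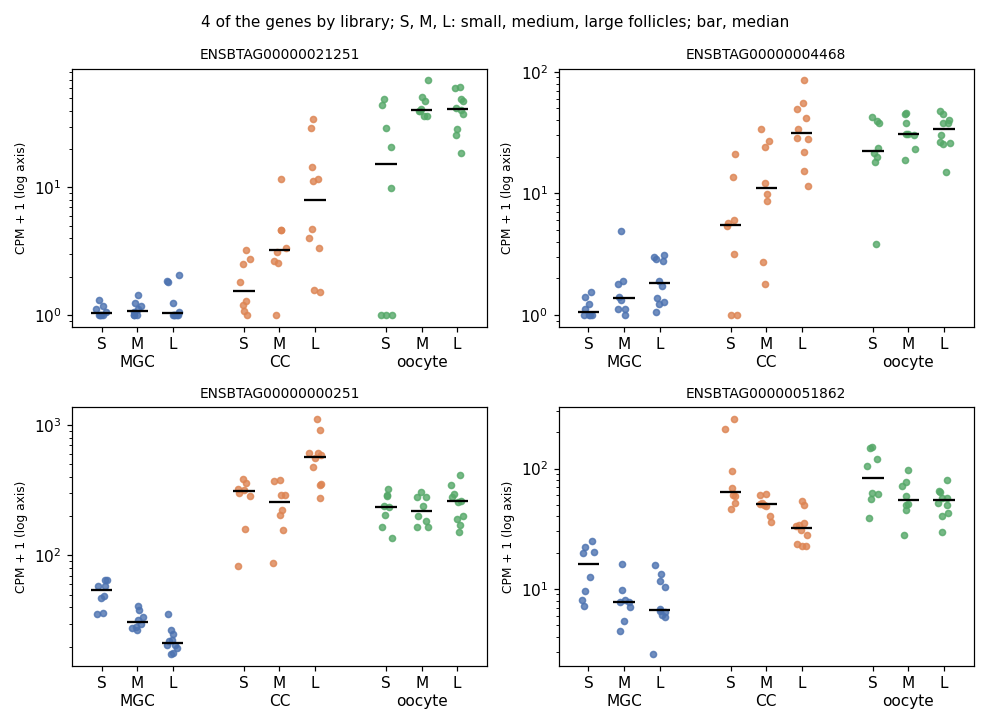
CPM + 1 (log axis) of 4 of the genes in each library of the 26 follicles, by cell type and by small (S), medium (M) and large (L) follicles, with the median as a bar. ENSBTAG00000021251 and ENSBTAG00000004468 have higher medians in large CC pools, ENSBTAG00000000251 falls in MGCs, and ENSBTAG00000051862 has 2 small CC pools, at 213 and 257 CPM, above all others.

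In oocytes, ENSBTAG00000021251 had no count in 3 of the 8 small follicles, with a median of 14.4 CPM there, 39.5 CPM in medium and 40.5 CPM in large follicles (small to large log2 fold change 1.08, SE 0.77, edgeR adjusted p = 0.447). ENSBTAG00000004468 had medians of 21.5, 29.9 and 33.1 CPM, a log2 fold change of 0.30 (SE 0.32, edgeR adjusted p = 0.647).

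Oocytes showed the smallest stage differences, and most of them were falls of less than 2-fold after the small stage. The 4 genes that fell more than 2-fold from small to large follicles, ranks 31, 54, 61 and 97, had log2 fold changes of -1.44 to -1.03 (edgeR adjusted p 0.00131 to 0.0379). Ranks 31, 61 and 97 were also among the 14 that fell in CCs, that is 3 of 4 oocyte genes and 3 of 16 CC genes. Nothing is read from this overlap, since it was not counted over all genes and the CC falls rested on CS50501 and CS71701. By the adjusted p alone, a limit added after the data were seen, 25 of the 100 fell (4.7% of all genes) and 2 rose (4.67%), with a median of -0.34 against 0.05 for all genes. From small to medium follicles 0 were called by both limits (0.195% of all genes fell and 0.619% rose), and by the adjusted p alone 18 fell (2.04%) and 0 rose (1.51%). In sum the 100 genes took 3.20% ± 0.23 of small (SD, n = 8), 2.55% ± 0.23 of medium (n = 8) and 2.60% ± 0.42 of large oocyte libraries (n = 10). With all 30 follicles, with the 10 follicles counted as healthy or with the digits as a covariate 0 of the 100 were called, by either limit. In that order, 0%, 0.00681% and 0.0269% of all genes were called from small to large follicles by both limits, so few genes of any kind passed. Within each of the shared digits the 4 genes fell for 4 of 4 by sign alone. Within the digits of CS50501, with 1 large follicle, the differences in mean log2(CPM + 1) were -0.12, -1.41, -0.037 and -0.54 for ranks 31, 54, 61 and 97. Those of ranks 31 and 61 are thus close to no change there.

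Whether stage changes differed between CCs and oocytes was tested as an interaction over both. None of the 100 passed in edgeR (0 of 100, against 0.352% of all genes in one direction and 0.292% in the other), with 21 at an unadjusted p below 0.05 (12.7% of all genes), and DESeq2 called 4 (2.22% of all genes). Rank 4 had the smallest p, with a change from small to large that was higher in CCs by 1.32 on the log2 scale (SE 0.39, edgeR adjusted p = 0.0798).

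Finally, CC pools and oocytes of the same follicle were compared across the 26 follicles, after stage means were removed from log2(CPM + 1). The correlation of the pair passed for 0 of the 100 genes (0.169% of all 14833 genes tested), by a two-sided permutation test of follicles within stages with 100000 resamples and adjustment over all genes, with 13 at an unadjusted p below 0.05 (11.0% of all genes). The median r was 0.16, against 0.12 for all genes, and r was positive for 73 of the 100, against 68.5% of all genes. Rank 79 had the smallest p (Pearson r = 0.66, permutation p = 0.00023, adjusted 0.0775; Spearman rho = 0.69, permutation p = 0.00017, adjusted 0.0934), and r was 0.60 without the 2 follicles farthest from the median CC level. With stage means kept, 2 of the 100 passed (1.98% of all genes).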

How the data were processed

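The deposited values are raw read counts per gene by Ensembl identifier, without normalization, for 90 libraries. The submitters' processing notes name HISAT2 2.2.1, featureCounts (Subread) and ARS-UCD1.2, while the study's methods name STAR with uniquely mapping reads. Which aligner made the counts was not settled. The healthy follicles of an alternative are those the study retained by its MGC marker criteria, as its supplement lists them. All columns were used except 1 incomplete CC library.

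Members and lists were chosen with earlier results of these data known. Gene lists and markers by symbol could not be applied, for want of a link from identifiers to symbols, so cell types rest on labels and no sequence is given. Genes to describe were the 10 of highest separation, the 3 of highest and 3 of lowest ratio of oocyte to CC, the pairs just inside and outside the choice, and the called genes of smallest p. At most 2 identifiers that rose and 2 that fell are printed.

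Genes with more than 1 CPM in at least 15 libraries of a cell type were tested with edgeR 4.0.16 (TMM, glmQLFit, glmQLFTest; R 4.3.3), in 1 fit per cell type over the stages, and Benjamini-Hochberg adjustment. DESeq2 1.42.0 was an alternative. Correlations and plots used Python 3.11.15, numpy 2.4.6, scipy 1.17.1, pandas 2.3.3 and matplotlib 3.10.9, with seed 1. On simulated counts, edgeR recovered 189, 164 and 152 of 200 genes changed 4-fold from small to large follicles in MGCs, CCs and oocytes, and called 7, 8 and 11 unchanged genes. MGCs, CCs and oocyte share a follicle number because they come from the same follicle; the median correlation of CC and oocyte deviations from stage means over all genes was 0.12. No follicle is tied to an animal in the labels, so p-values measure the spread between follicles. The study gives only a minimum number of animals per size class, which is below the number of follicles, and collected in several batches. Follicles that share an animal or a batch may not be independent, so n can overstate the replication. Precision is limited by the number of follicles and of animals, and amplified reads without molecular identifiers are not independent molecules.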

Additional observations from a re-analysis of the deposited data

Results flagged for a closer look

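The summed share of the 100 genes and the 4 named genes were examined for a single library far from its group, in 45 groups of 8 or 10 libraries. For normal values chance alone flags about 1 in 20 groups. That rate may not hold here, since values were taken without a log scale and the groups share libraries. In 5 groups the highest library stood apart by Dixon's limit at the 95% level. ENSBTAG00000004468 reached 3.95 CPM in GM71002, the MGCs of a medium follicle, and ENSBTAG00000021251 reached 10.8 CPM in the CC pool of the same follicle, CM71002. ENSBTAG00000051862 reached 15.1 CPM in the medium MGC library GM72403, and ENSBTAG00000021251 reached 68.1 CPM in the oocyte of that follicle, OM72403. ENSBTAG00000000251 reached 34.8 CPM in the large MGC library GL70503.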

How the results depend on the processing

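Of the alternatives to counts of called genes or to the choice of the 100, 135 stayed within 1.5 times of the reported count and 30 did not, and the cause was not tested. This tally compared totals and not directions, and it includes counts of 0 that stayed at 0. In MGCs from small to large the digits as a covariate gave 13 against 11, which the tally takes as unchanged. There 8 rose and 5 fell, against 0 and 11, and the median log2 fold change of the 100 was 0.43 against -0.28. DESeq2 called 4 genes in MGCs from small to medium and 18 from small to large (1.52% and 5.09% of all genes). In CCs it called 1, 2 and 26 from small to medium, medium to large and small to large (0.253%, 0.12% and 9.03%). It called 4 in the interaction (2.22%) and 55 as higher in CCs than in MGCs of the left-out follicles (2.38%). The 10 healthy follicles gave 2, 23 (22 of them falls) and 12 in MGCs from small to medium, medium to large and small to large (1.66%, 7.96% and 8.74% of all genes). They gave 1 and 1 in CCs from small to medium and small to large (0.00671% and 0.0805%). In oocytes from small to large they gave 0 (0.00681%), and in the interaction 2 (0.0199%). The identifier digits as a covariate gave 0 in MGCs from small to medium (0.236% of all genes). From small to large they gave 1 in CCs (0.0399%) and 0 in oocytes (0.0269%). All 30 follicles gave 9 in CCs (1.85%) and 0 in oocytes (0%), and only the libraries of the stages compared gave 2 in CCs (0.26%). Without the 2 libraries least like their cell type, chosen after seeing the data, 0 remained in CCs from small to large (0%). In oocytes from small to medium 1 was then called (0.996%). By the adjusted p alone, oocytes had 18 from small to medium and 27 from small to large. Without a filter, 4 were called in CCs against MGCs of the left-out follicles (0.174%). There, leaving out 1 follicle gave 25 to 69 genes in oocytes against MGCs (13.2% to 29.7% of all genes). It gave 2 to 7 in CCs against oocytes (6.78% to 18.4%) and 0 in CCs against MGCs (0%). With the follicle as a replicate block these counts were 57, 6 and 0 (25.3%, 15.9% and 0%), and the interaction stayed at 0, so the block moved no count by more than 1.5 times. No paired analysis was possible because no follicle belongs to more than one stage, for the comparisons of stages. The matched correlations had 2 with stage means kept. Of the 100 genes, a pseudocount of 10 kept 53, the 10 healthy follicles 66, small follicles alone 64, TMM-scaled CPM 83 and leaving out 1 follicle 94 to 100. The log2 fold changes of the 4 named genes, each in the 1 comparison it is named for, kept their sign, but 12 of 36 values no longer passed. These were 4 of 9 for each gene that rose, 3 of 9 for ENSBTAG00000051862 and 1 of 9 for ENSBTAG00000000251, whose fold change was -0.98 with the digits. The limits are the 3 CC pools among the left-out follicles, the few genes detected in OM71804 and OM71001, and the falls in CCs, which rest on 2 pools.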
